A study of Mus musculus with 4 samples.

Results

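The genes described here are the 5 subunits of the transcription factor NF-kB (Rela, Rel, Relb, Nfkb1 and Nfkb2) and 5 genes that restrain or modify it (Nfkbia, Nfkbie, Nfkbiz, Bcl3 and Tnfaip3). They were taken by gene symbol, and all 10 were among the 55357 genes of the deposited matrices. Single-cell RNA sequencing was performed on the ascending aorta of wild-type (WT) male mice in which aortic dissection (AD) was modelled with β-aminopropionitrile (BAPN), which blocks lysyl oxidase and so weakens the matrix of the vessel wall. The mice drank BAPN with their water, 1 g/kg each day, for 4 weeks from 3 weeks of age. The AD group (2 libraries) received BAPN without paquinimod, and the AD_ABR group (2 libraries) received BAPN and paquinimod (labelled ABR), a small molecule that binds S100A9, by the intragastric route at 10 mg/kg per day. Every group compared here carried the BAPN model, so no value is set against an aorta without it. The labels do not say whether the libraries came from separate animals or from pooled ones, so p-values measure only the spread between these libraries.

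NF-kB is a family of DNA-binding dimers that is held in the cytoplasm of resting cells by inhibitor of kB proteins. Cytokines, microbial products and antigen receptors activate IkB kinase, the inhibitors are degraded, and the dimers enter the nucleus and switch on genes of inflammation, adhesion and survival. Several of those target genes encode the pathway's own inhibitors, and in endothelium and vascular smooth muscle the pathway is known for the induction of adhesion molecules and chemokines. Rela, Rel and Relb carry a transactivation domain, whereas Nfkb1 (p105, processed to p50) and Nfkb2 (p100, processed to p52) are partner subunits made from precursors. Nfkbia and Nfkbie encode the inhibitors IkBα and IkBε. Nfkbiz (IkBζ) and Bcl3 are nuclear relatives of these inhibitors that bind p50 or p52 on DNA, and Tnfaip3 (A20) is a ubiquitin-editing enzyme that shuts off signalling upstream of IkB kinase.

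The libraries held 76142840 to 99572011 unique molecular identifiers (UMIs, each of which marks a captured RNA molecule) over 9230 to 11161 barcodes, and 37259 cells were kept. Kept cells of AD had a median of 5268 and 7185 UMIs, against 9452 and 8208 in AD_ABR, and each library shared 73 to 93 of its barcodes with another library. The share of UMIs on Rn18s-rs5, which resembles ribosomal RNA, was 5.34 and 3.23% in the AD libraries and 1.83 and 1.37% in the AD_ABR libraries; its part in the results was not tested. Cells were clustered, and clusters were named with the ending -like from marker genes or left with a number. Neutrophil-like cells made up 17.9 and 2.37% of the AD libraries and 0.248 and 0.101% of the AD_ABR libraries. UMIs were then summed per library and population, levels are given as counts scaled to a sum of 1000000 UMIs (CPM), and changes were tested as AD_ABR minus AD by edgeR's quasi-likelihood test with Benjamini-Hochberg adjustment over all genes tested in the population, at a threshold of 0.05. The populations tested, with at least 50 cells in every library, were 6 named classes and 6 unnamed clusters. Endothelial-like cells carried all 8 endothelial markers in every library (summed level of 7051 to 7637 CPM) and smooth muscle-like cells all 8 smooth muscle markers (37160 to 49292 CPM).

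The members lie on 8 chromosomes of the mouse genome (GRCm38, GENCODE release M21). Rela (chr19:5637483-5648130) and Nfkb2 (chr19:46304320-46312385) share chromosome 19, and Relb (chr7:19606217-19629438) and Bcl3 (chr7:19808462-19822770) share chromosome 7. Rel lies at chr11:23736847-23770970, Nfkb1 at chr3:135584655-135691547, Nfkbia at chr12:55489410-55492647, Nfkbie at chr17:45555703-45563169, Nfkbiz at chr16:55811375-55838899 and Tnfaip3 at chr10:19000910-19015657. The promoters of the members were searched for the κB consensus, the 10-base motif that NF-kB dimers bind. Each window ran from 250 bases before to 50 bases after a RefSeq start site (GRCm38.p6) and was searched on both strands. The table held windows for 7 members (Rela, Rel, Nfkb2, Nfkbia, Nfkbie, Bcl3 and Tnfaip3), and 6 of the 7 had at least 1 match, against 5.14% of the 27025 genes in the same table. The Rela window had no match, which says only that these letters are absent from it. The promoters of Rel, Nfkbia and Nfkbie are printed up to the annotated gene, 5′ to 3′ on the gene's strand, with the κB matches in capitals.
Rel, chr11:23770971-23771119, minus strand: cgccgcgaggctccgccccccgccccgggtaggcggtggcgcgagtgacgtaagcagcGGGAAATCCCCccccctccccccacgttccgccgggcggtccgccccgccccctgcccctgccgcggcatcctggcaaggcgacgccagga
Nfkbia, chr12:55492648-55492797, minus strand: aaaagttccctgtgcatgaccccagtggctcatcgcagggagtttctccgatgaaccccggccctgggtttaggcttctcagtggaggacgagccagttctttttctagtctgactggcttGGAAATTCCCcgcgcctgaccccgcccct
Nfkbie, chr17:45555550-45555699, plus strand: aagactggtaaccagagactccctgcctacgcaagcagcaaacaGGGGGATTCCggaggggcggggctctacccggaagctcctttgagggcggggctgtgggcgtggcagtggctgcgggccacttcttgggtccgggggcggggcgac

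The capitals of Rel hold 2 overlapping matches (chr11:23771052-23771061 and chr11:23771051-23771060) that begin 92 and 91 bases before the start site, that of Nfkbia begins 29 bases before it and that of Nfkbie 106 bases before it. For Tnfaip3, Nfkb2 and Bcl3, 30 bases around a match are shown, because the annotated gene reaches into the window. Further Nfkb2 matches are not printed. They lie at chr19:46304726-46304735, 11 bases before the start site of the printed pair, and in windows of other start sites (chr19:46305459-46305468 and chr19:46305705-46305714).
Tnfaip3, match at chr10:19015413-19015422, minus strand, 12 bases before the start site: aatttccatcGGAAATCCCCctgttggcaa
Tnfaip3, match at chr10:19015526-19015535, minus strand, 125 bases before the start site: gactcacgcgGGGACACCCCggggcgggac
Nfkb2, overlapping matches at chr19:46304698-46304707 and chr19:46304699-46304708, plus strand, 39 and 38 bases before the start site: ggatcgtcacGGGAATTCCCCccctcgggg
Bcl3, match at chr7:19822744-19822753, minus strand, just after the start site: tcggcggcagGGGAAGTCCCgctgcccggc
A match is a description of the sequence and not a measured binding site. A link between the matches and the changes with paquinimod was not tested. Rel and Tnfaip3 share the same 10-base match, GGAAATCCCC.

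In the diseased aorta without paquinimod, most members were highest in leukocytes and lowest in smooth muscle-like cells. The order below is over the 19 populations with at least 50 cells in both AD libraries, each gene is compared only with itself, and since the populations were clustered from the same cells the levels are descriptions without a test. Nfkbia, an inhibitor that NF-kB itself induces, had its highest level in neutrophil-like cells (4273 and 6516 CPM), well above endothelial-like cells (1846 and 2643 CPM). Rel, the subunit known for lymphocytes and dendritic cells, was highest in B-like (1345 and 1102 CPM) and dendritic-like cells (1104 and 1184 CPM), whose ranges overlapped, and both were above T-like cells (567 and 307 CPM). Relb, a subunit of the slower non-canonical arm that dendritic cells need, was highest in dendritic-like cells (106 and 113 CPM), above neutrophil-like cells (43.9 and 88.2 CPM). Tnfaip3 was highest in T-like cells (740 and 944 CPM), above neutrophil-like cells (539 and 708 CPM). Rela differed from the others: its mean stayed between 50.4 and 130 CPM over the 19 populations, and endothelial-like cells were highest (139 and 122 CPM).

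Smooth muscle-like cells had the lowest mean of Nfkb1, Nfkb2, Rel, Nfkbia, Tnfaip3 and Bcl3, and the second lowest of Relb and Nfkbie. Rel there (31.9 and 26.4 CPM) lay below the next population, cluster 14 (39.2 and 39.8 CPM), and Bcl3 (4.14 and 5.21 CPM) below cluster 14 (7.85 and 7.50 CPM), whereas Tnfaip3 (20.6 and 11.01 CPM) overlapped it (20.9 and 11.3 CPM). Cluster 13, a population of Cxcl5, Lif, Timp1 and Il6 whose share was 4.95 and 6.32% of the AD libraries and 0.568 and 0.223% of the AD_ABR libraries, held the largest share of Nfkb1 UMIs of any population in AD (22.4 and 24.3%). In AD_ABR it had 48 and 22 cells, and with the limit lowered to 10 cells no member passed there, with Tnfaip3 at −0.80 (edgeR adjusted p = 0.49) and Relb at 0.82 (0.497).

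**Figure D1:**
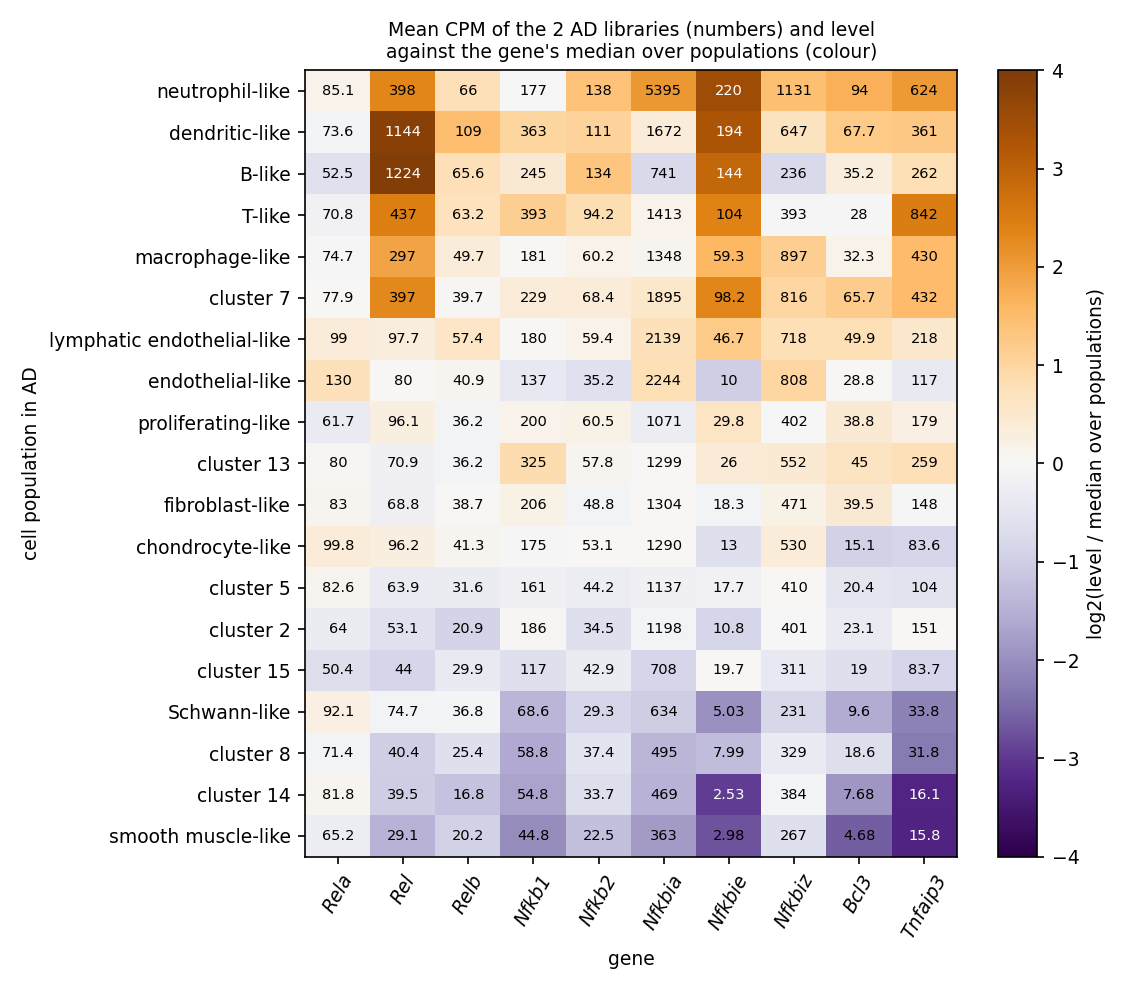
Mean level in CPM of each gene over the 2 AD libraries (number in each cell) in 19 cell populations, coloured by the log2 ratio to that gene's median over the populations. The leukocyte classes at the top are orange for Rel, Nfkbie and Tnfaip3, the smooth muscle-like row at the bottom is violet for most genes, and the Rela column is nearly even (50.4 to 130 CPM).

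With paquinimod, the NF-kB genes were lower in endothelial-like cells, the lining of the vessel. All 10 of 10 members fell in this class, where 4.09% of the 10764 genes tested fell, and the median log2 fold change of the members was −1.36 against 0.00 over all genes. The sums were over 201 and 478 cells (AD) and 238 and 275 cells (AD_ABR). The steepest falls were in the feedback genes and in Rel. Tnfaip3 had 125 and 109 CPM in AD against 35.0 and 23.8 CPM in AD_ABR (log2 fold change −2.02 ± 0.19 SE, edgeR adjusted p = 5.76e-05). Both AD_ABR libraries were thus below both AD libraries, with a ratio of the means of 3.99. Rel had 91.4 and 68.6 CPM against 24.4 and 18.04 CPM (−1.92 ± 0.21 SE, adjusted p = 0.000148). Nfkbiz, the nuclear co-activator that NF-kB induces, had 881 and 734 CPM against 272 and 203 CPM (−1.80 ± 0.16 SE, adjusted p = 4.82e-05). Bcl3, with 19 and 23 UMIs in AD_ABR, had 27.9 and 29.6 CPM against 7.14 and 9.43 CPM (−1.84 ± 0.26 SE, adjusted p = 0.000991). The gap between the groups in these 4 genes was larger than the gap between the replicates of either group.

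The inhibitors and the remaining subunits fell by less. Nfkbia had 1846 and 2643 CPM in AD and 1005 and 991 CPM in AD_ABR (−1.21 ± 0.17 SE, adjusted p = 0.000789), so that the AD replicates lay far apart and the AD_ABR replicates close together. Nfkbie rested on few molecules, 18 and 31 UMIs against 12 and 6 (10.7 and 9.37 CPM against 4.51 and 2.46 CPM; −1.52, adjusted p = 0.0475). Among the subunits, Nfkb1 went from 147 and 126 CPM to 79.7 and 67.2 CPM (−0.92, adjusted p = 0.00344) and Rela from 139 and 122 CPM to 76.3 and 81.6 CPM (−0.75, adjusted p = 0.00907). Relb (45.1 and 36.6 CPM against 24.1 and 24.6 CPM; −0.76, adjusted p = 0.0356) and Nfkb2 (33.8 and 36.6 CPM against 21.8 and 22.5 CPM; −0.72, adjusted p = 0.0487) passed near the threshold. The groups did not overlap for any of the 10 members, an order that 24% of all genes tested had.

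How many members passed depended on both AD_ABR libraries. The log2 fold changes of the members ran from −2.32 to −0.68 without AD_ABR replicate 1 and from −2.04 to −0.73 without AD_ABR replicate 2. In these fits the single AD_ABR library is assumed to vary like the AD ones, and fewer genes of all kinds were called than in the main fit. Nfkb1, Rela, Relb, Nfkbie and Nfkb2 missed the threshold in both cases, and Nfkbia missed it without AD_ABR replicate 2. Nfkb2 also missed it without AD replicate 2 (adjusted p = 0.1), with library totals (0.0591), with median-of-ratios factors (0.0511), with S100a8 or S100a9 cells left out (0.0837) and clustered without the list genes (0.0504). Nfkbie missed it with library totals (0.0516) and below 10% mitochondrial UMIs (0.0543), so that 8 or 9 members passed in these alternatives. By DESeq2, 7 members passed, without Nfkb2 (adjusted p = 0.44), Relb (0.309) and Nfkbie (0.351). Free RNA from neutrophils, judged from S100a8 and S100a9, could have brought at most 5.06% of a member's level (Nfkbie, AD replicate 1). The same estimate from the 8 dendritic markers, whose summed level was 18.4 and 11.2 CPM in AD and 14.3 and 10.2 CPM in AD_ABR, reached 18.2% in AD and 37.7% in AD_ABR, in both cases for Nfkbie. Of the 22 genes that rise when tissue is dissociated, 11 fell in this class as well (median log2 fold change −0.66), where 4.09% of all genes fell. Among them were Zfp36, a decay factor for cytokine mRNA (1506 and 1350 CPM against 507 and 584 CPM), and the stress factor Atf3 (2174 and 2331 CPM against 777 and 986 CPM). Markers of other cell types moved both ways in the class. The 7 of lymphatic endothelium summed to 76.6 and 55.03 CPM in AD and 25.6 and 25.01 CPM in AD_ABR. Those of proliferation, also 7, summed to 51.6 and 31.1 against 13.9 and 17.6 CPM. Higher in both AD_ABR libraries were, among others, the 8 of smooth muscle (1030 and 1196 against 1376 and 1388 CPM). So were the 7 of monocytes (665 and 605 against 829 and 737 CPM). The part of dissociation and of these cells in the fall of the members was not tested.

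**Figure D2:**
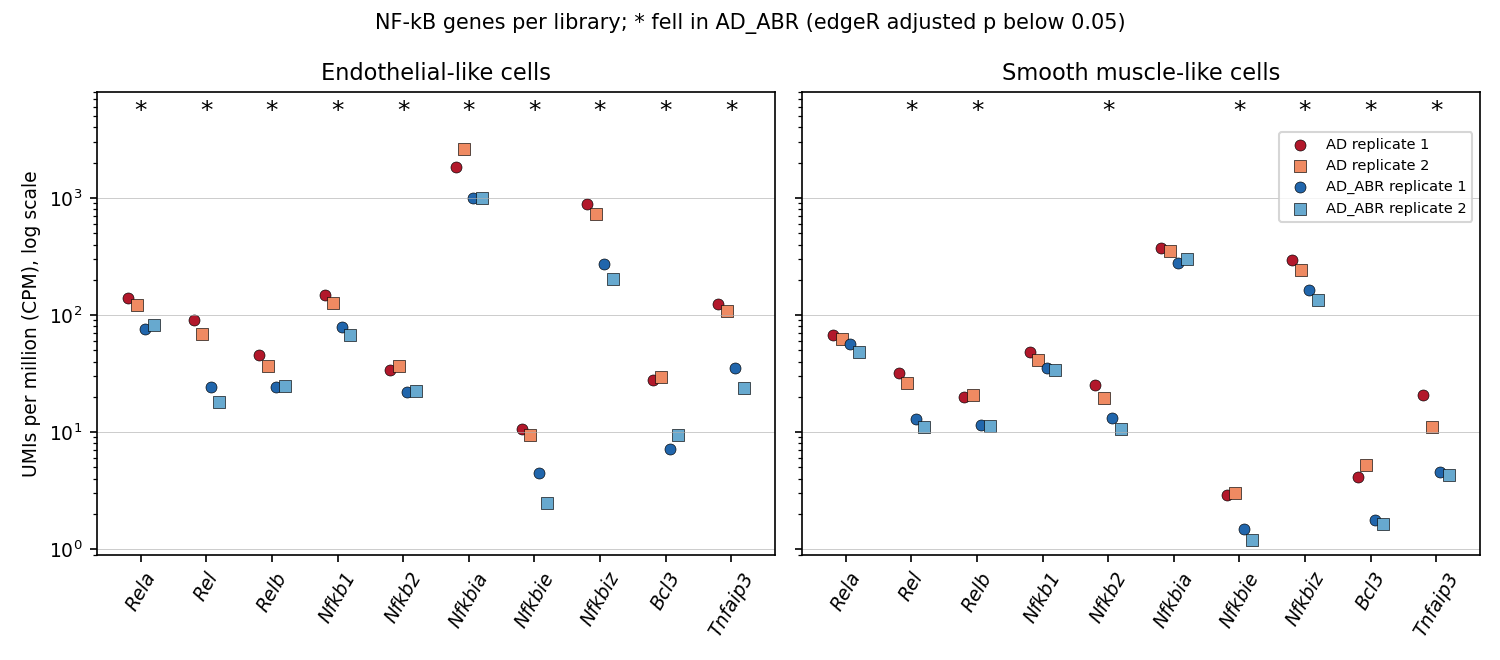
Level of each NF-kB gene in CPM (log scale) in the 4 libraries, in endothelial-like cells (left) and smooth muscle-like cells (right); circles are replicate 1 and squares replicate 2, red and orange AD, dark and light blue AD_ABR, and a star marks an edgeR adjusted p below 0.05. All blue points lie under the red and orange ones, with 10 stars in endothelial-like and 7 in smooth muscle-like cells.

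In smooth muscle-like cells, which bear the contraction of the media, 7 of 10 members fell and none rose, in a class where 6.83% of the 14540 genes tested fell. The median log2 fold change of the members was −0.80, against −0.02 over all genes. The sums were over 737 and 1622 cells (AD) and 3303 and 2654 cells (AD_ABR). Tnfaip3 was again the gene with the largest fall: 20.6 and 11.01 CPM in AD, against 4.53 and 4.28 CPM in AD_ABR (−1.71 ± 0.23 SE, adjusted p = 0.000556). The AD replicates differed from each other by more than AD replicate 2 differed from either AD_ABR library, and without AD replicate 1 the log2 fold change was −1.28. Bcl3 had 4.14 and 5.21 CPM against 1.79 and 1.64 CPM (−1.42 ± 0.27 SE, adjusted p = 0.00208). Rel had 31.9 and 26.4 CPM against 12.8 and 10.99 CPM (−1.21 ± 0.14 SE, adjusted p = 3.37e-05), the lowest adjusted p of the 10 genes. For Rel and Bcl3 the gap between the groups was larger than the gap between replicates.

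Both genes of the non-canonical arm fell by similar amounts, Nfkb2 from 25.5 and 19.5 CPM to 13.3 and 10.6 CPM (−0.82, adjusted p = 0.00217) and Relb from 19.8 and 20.6 CPM to 11.6 and 11.3 CPM (−0.77, adjusted p = 0.00147). Nfkbiz went from 293 and 241 CPM to 165 and 135 CPM (−0.77, adjusted p = 0.000735). Nfkbie was near the detection limit, with 19 and 42 UMIs in AD and 56 and 32 in AD_ABR (2.92 and 3.04 CPM against 1.49 and 1.19 CPM; −1.09, adjusted p = 0.0251). The other 3 members did not pass although both AD_ABR libraries were below both AD libraries: Nfkbia (373 and 353 CPM against 280 and 299 CPM; −0.27, adjusted p = 0.125), Nfkb1 (48.7 and 41.0 CPM against 35.1 and 34.1 CPM; −0.30, adjusted p = 0.101) and Rela (67.4 and 63.0 CPM against 56.5 and 48.5 CPM; −0.25, adjusted p = 0.174). That order of libraries was shared by 36% of all genes tested.

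Nfkbie was the only call in this class that was lost when a library was left out, and it was lost without AD replicate 2 (adjusted p = 0.107), without AD_ABR replicate 1 (0.0659) and without AD_ABR replicate 2 (0.217), and also by DESeq2 (0.152). The macrophage markers summed to 38.1 and 24.0 CPM in AD and 25.1 and 37.4 CPM in AD_ABR, so they overlapped between groups, and those of dendritic cells to 6.45 and 3.84 against 5.52 and 5.51 CPM. Free RNA in these proportions would have brought at most 8.04% of a member's level from macrophage-like cells (Tnfaip3, AD_ABR replicate 2) and at most 41.9% from dendritic-like cells (Nfkbie, AD_ABR replicate 2). The neutrophil markers summed to 48.5 and 5.36 CPM in AD and 2.56 and 2.72 CPM in AD_ABR, and the estimate from S100a8 and S100a9 was at most 5.17% (Nfkbie, AD replicate 1). With every cell that carried an S100a8 or S100a9 UMI left out, 7 members fell, where 1752 of 14470 genes were called in either direction. The part of neutrophil RNA in the change of the members was not tested. The class joins clusters 0 and 1, which gave 473 and 953 against 264 and 669 cells in the AD libraries. In the AD_ABR libraries they gave 1935 and 1020 against 1368 and 1634 cells. In cluster 0 by itself 6 members fell, without Nfkbie, where 1221 of 13071 genes were called in either direction. In cluster 1 by itself, where 9 members were tested, 5 fell, without Nfkb2 and Nfkbie. There 999 of 12809 genes were called in either direction.

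Whether the fall in endothelial-like cells was larger than in smooth muscle-like cells was tested with a class by group term and the library in the model. It was larger for Nfkbiz (difference of −1.04 ± 0.12 SE on the log2 scale, edgeR adjusted p = 1.16e-05), Nfkbia (−0.92 ± 0.18 SE, adjusted p = 0.03) and Nfkb1 (−0.62 ± 0.15 SE, adjusted p = 0.0184), where 2.39% of all genes fell more in endothelial-like cells. Nfkbia and Nfkb1 are thus 2 genes with a call in endothelial-like cells and none in smooth muscle-like cells whose change also differed between them. Rela (−0.50, adjusted p = 0.0578) and Rel (−0.70, adjusted p = 0.0565) missed the threshold. For Relb (0.02 ± 0.22 SE) and Nfkb2 (0.09 ± 0.24 SE) the difference was near 0 with an SE that leaves room for a change of either sign. Nfkbiz passed with any single library left out, whereas Nfkb1 was lost without AD_ABR replicate 1 (adjusted p = 0.0571) or replicate 2 (0.252) and Nfkbia without AD_ABR replicate 2 (0.077).

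**Figure D3:**
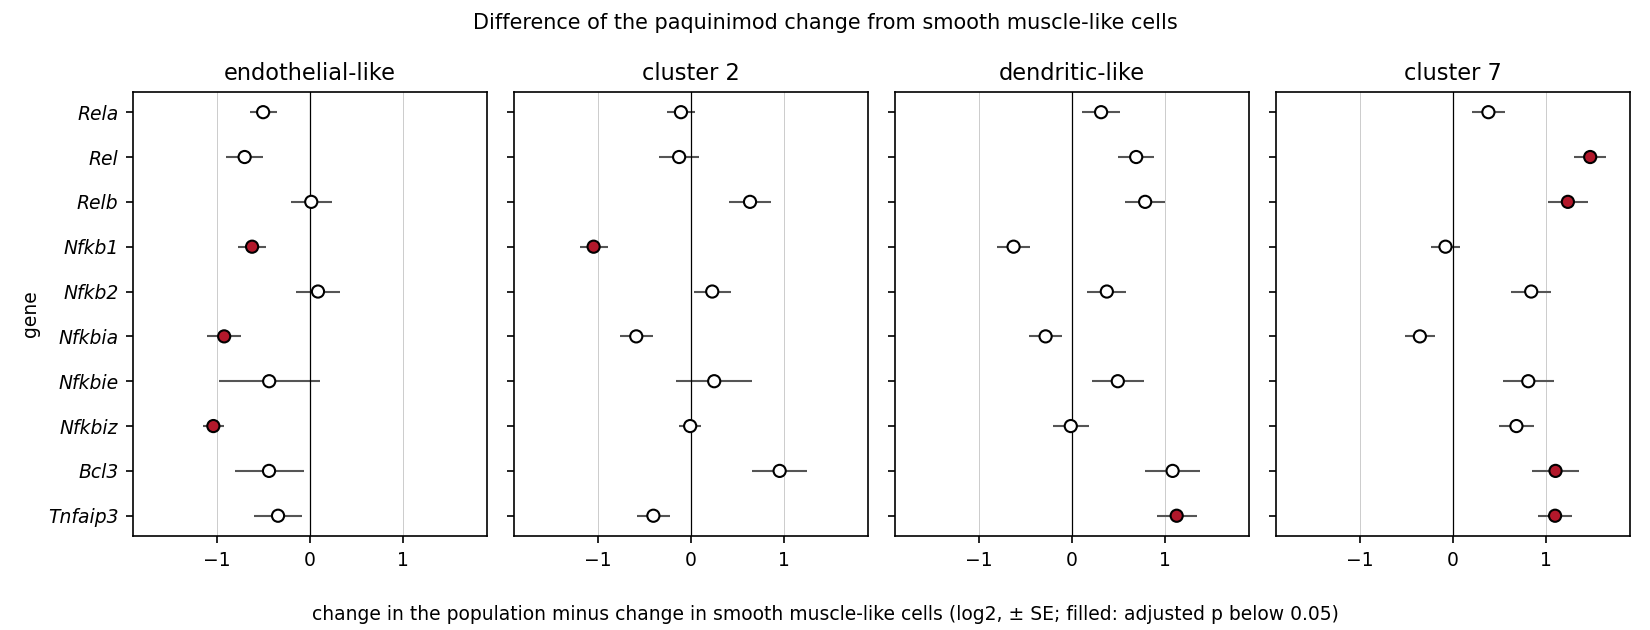
Change with paquinimod in 4 populations minus the change in smooth muscle-like cells, in log2 units with the SE as bars, for each of the 10 genes; filled points have an edgeR adjusted p below 0.05. Points left of 0 fell more than in smooth muscle-like cells (Nfkb1, Nfkbia and Nfkbiz in endothelial-like cells), and points right of 0 fell less or were higher (Rel, Relb, Bcl3 and Tnfaip3 in cluster 7).

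Fibroblast-like cells, which make the adventitial matrix, had the same order of libraries but fewer calls. Both AD_ABR libraries were below both AD libraries for all 10 members, as for 26% of the 14604 genes tested, and 2 of the 10 fell, in a class where 0.274% of genes fell. Tnfaip3 had 165 and 130 CPM in AD against 54.7 and 49.1 CPM in AD_ABR (−1.49 ± 0.15 SE, adjusted p = 0.00995), and Rel had 68.4 and 69.3 CPM against 32.3 and 34.3 CPM (−1.04 ± 0.12 SE, adjusted p = 0.0131). Nfkb1 came next, with 205 and 206 CPM against 123 and 104 CPM (−0.85, adjusted p = 0.0518), and Nfkbie followed (19.3 and 17.3 CPM against 10.3 and 8.995 CPM; −0.91, adjusted p = 0.0579). The other 6 had log2 fold changes between −0.39 and −0.71 with adjusted p-values from 0.0966 to 0.213. No difference from smooth muscle-like cells passed the test; those of Nfkb1 (−0.56, adjusted p = 0.0787) and Bcl3 (0.84, adjusted p = 0.0797) came nearest. The class joins clusters 3 and 4, which gave 502 and 1275 against 328 and 637 cells in the AD libraries and 430 and 1088 against 759 and 1042 in the AD_ABR libraries. In cluster 3 by itself Tnfaip3 missed the threshold (−1.47, adjusted p = 0.0505), and in cluster 4 by itself Rel did (−0.77, adjusted p = 0.0714). Neutrophil markers summed to 75.8 and 21.8 CPM in AD and 7.91 and 4.88 CPM in AD_ABR, and dendritic markers to 13.3 and 12.5 against 6.92 and 6.63 CPM; free RNA would have brought at most 1.12% of a member's level from neutrophils (Nfkbie) and 12.9% from dendritic-like cells (Rel), both in AD replicate 1. The number of calls in this class depended on the fit, for the members and for all genes. It was 5 by DESeq2 (246 of 14604 genes called in either direction) and 7 without the filter on low counts (870 of 26366). With each library left out in turn, the log2 fold changes of the members stayed at −0.28 or lower.

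Cluster 2, whose leading genes were Fmod and Inmt and whose best marker list was that of fibroblasts, had the largest fall of a single member among the 12 populations tested. Lymphatic endothelial-like cells (37 and 26 cells in AD_ABR) were tested only with the limit lowered to 10 cells. No member passed in them, with log2 fold changes from −3.47 (Tnfaip3, edgeR adjusted p = 0.16) to −0.39 (Bcl3, 0.717). Tnfaip3 in cluster 2 had 206 and 97.0 CPM in AD against 33.9 and 26.3 CPM in AD_ABR (−2.20 ± 0.32 SE, adjusted p = 0.0213), with AD replicates that differed by more than a factor of 2. In all, 4 of the 10 members fell, where 0.649% of genes fell. Nfkb1 had 233 and 139 CPM against 71.4 and 56.0 CPM (−1.46 ± 0.21 SE, adjusted p = 0.00331), and its change was larger than in smooth muscle-like cells by −1.04 ± 0.15 SE (adjusted p = 0.000438), also without each library (−0.88 to −1.28). Nfkbia (1095 and 1301 CPM against 732 and 514 CPM; −0.91, adjusted p = 0.029) and Nfkbiz (426 and 377 CPM against 237 and 197 CPM; −0.84, adjusted p = 0.0207) completed the calls. Without AD_ABR replicate 2 both were lost (adjusted p = 0.777 and 0.622), and Nfkbiz was lost without AD_ABR replicate 1 (0.0955).

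In cluster 5 (leading genes Prss12 and Tnfrsf11b) 3 of 10 members fell, where 0.267% of genes fell. They were Tnfaip3 (98.6 and 109 CPM against 42.4 and 29.4 CPM; −1.54, adjusted p = 0.00148), Rel (59.0 and 68.9 against 33.8 and 26.1 CPM; −1.10, adjusted p = 0.0121) and Nfkb1 (165 and 157 against 102 and 80.9 CPM; −0.81, adjusted p = 0.0359). Without AD_ABR replicate 2, where fewer genes of all kinds were called, Rel and Nfkb1 missed the threshold. The log2 fold changes of the members ran from −1.30 to −0.13 in that fit and from −1.64 to −0.52 without AD replicate 1. In cluster 14 (leading genes Rgs5 and Prss12) 3 of the 9 members tested fell, where 1.02% of genes fell: Tnfaip3 (20.9 and 11.3 against 2.53 and 4.52 CPM; −2.14, adjusted p = 0.0194), Nfkbiz (415 and 353 against 257 and 254 CPM; −0.63, adjusted p = 0.0212) and Rel (39.2 and 39.8 against 22.5 and 20.6 CPM; −0.92, adjusted p = 0.0338). All 9 were lower in both AD_ABR libraries, as were 19.9% of genes there. The Tnfaip3 values rest on 9 to 16 UMIs a library. Rel was lost with any single library left out (adjusted p = 0.0873 to 0.21), Tnfaip3 without AD replicate 1 (0.176) or AD_ABR replicate 1 (0.123) and Nfkbiz without AD_ABR replicate 1 (0.268) or replicate 2 (0.352). Tnfaip3 and Rel were therefore called in endothelial-like, smooth muscle-like and fibroblast-like cells and in clusters 5 and 14, and Tnfaip3 also in cluster 2, where Rel came close (65.3 and 40.8 against 23.7 and 13.3 CPM; −1.40, adjusted p = 0.0518).

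**Figure D4:**
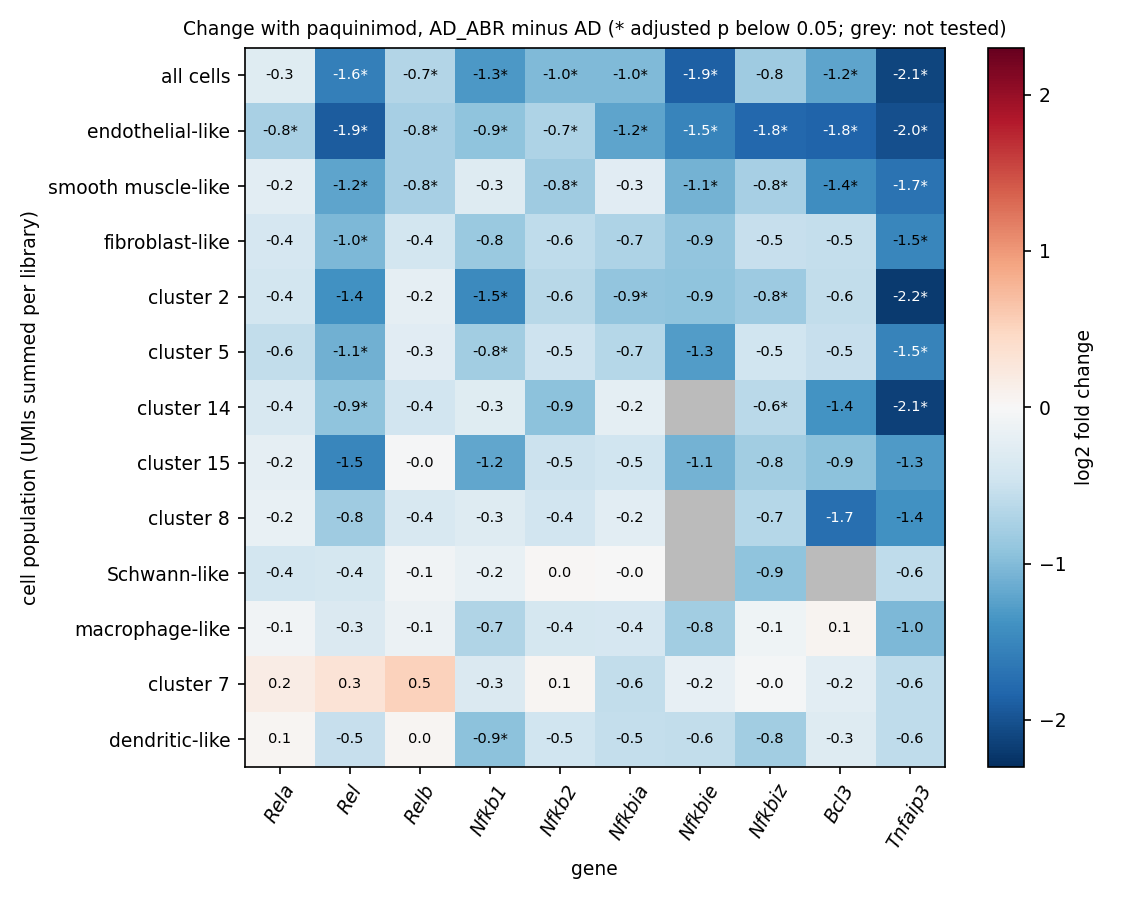
Log2 fold change (AD_ABR minus AD) of each of the 10 genes over all kept cells and in the 12 populations tested, with values in the cells, blue for lower in AD_ABR, a star for an edgeR adjusted p below 0.05 and grey for a gene under the filter on low counts. The Tnfaip3 and Rel columns are blue in most rows, and the macrophage-like, cluster 7 and dendritic-like rows at the bottom are paler, with 1 star in all.

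The myeloid populations gave few calls. In macrophage-like cells none of the 10 members passed the edgeR test, where 0.0649% of the 10789 genes fell, and DESeq2 also called 0. An unadjusted edgeR p below 0.05 was found for 3 members, but the share of all genes at that threshold was not counted. Both AD_ABR libraries were lower for 4 of the 10, as for 20% of genes. Tnfaip3 had 302 and 557 CPM in AD against 236 and 202 CPM in AD_ABR (−1.03 ± 0.28 SE, adjusted p = 0.178). Nfkbia had 1296 and 1401 CPM against 1040 and 1126 CPM (−0.39, adjusted p = 0.354). Nfkbiz overlapped between the groups, with 643 and 1151 CPM against 860 and 888 CPM, and so did Rel (233 and 361 against 269 and 225 CPM) and Bcl3 (22.2 and 42.4 against 39.8 and 29.4 CPM). The makeup of this class differed between libraries, and AD replicate 1 stood apart: the cluster with Cx3cr1 and Cd72 gave 941 and 141 of its AD cells and 27 and 65 of its AD_ABR cells, and the cluster with Folr2 and Cd163, which held most of the class in the other 3 libraries, gave 81 and 236 against 293 and 652. In the Folr2 cluster by itself 2 members fell, Tnfaip3 and Nfkb1, where 356 of 9144 genes were called in either direction. For the class, the log2 fold changes of the members ran from −1.38 to −0.29 without AD replicate 1 and from −0.59 to 0.50 without AD replicate 2.

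Cluster 7, led by Arg1 and Trem2 and nearest to the macrophage list, had members on both sides of 0. None of the 10 passed, where 2.49% of the 10401 genes fell and 2.22% rose, and DESeq2 also called 0. An unadjusted edgeR p below 0.05 was reached by 3 members, a threshold at which the share of all genes was not counted. Without AD replicate 2, the log2 fold changes of the members ran from −0.83 to 0.65. Rel had 387 and 406 CPM in AD and 517 and 453 CPM in AD_ABR (0.31, adjusted p = 0.321), Relb 36.1 and 43.4 CPM against 66.2 and 48.8 CPM (0.54, adjusted p = 0.171) and Tnfaip3 509 and 354 CPM against 281 and 289 CPM (−0.58, adjusted p = 0.136). The changes of 4 members differed from those in smooth muscle-like cells, all towards a smaller fall or a rise: Rel by 1.47 ± 0.17 SE (adjusted p = 0.000622), Relb by 1.23 ± 0.21 SE (0.00688), Bcl3 by 1.10 ± 0.26 SE (0.0346) and Tnfaip3 by 1.10 ± 0.19 SE (0.00633). Of all genes, 1.39% differed in that direction. Rel and Relb passed with any single library left out, Tnfaip3 was lost without AD_ABR replicate 2 (adjusted p = 0.0708), and Bcl3 was lost without AD replicate 2 (0.105), AD_ABR replicate 1 (0.0807) or AD_ABR replicate 2 (0.165). The comparison with unnamed clusters was added after the data had been seen.

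Dendritic-like cells, which present antigen and depend on Rel and Relb, had 1 call among 10 members, where 0.656% of the 9302 genes fell. Nfkb1 had 402 and 324 CPM in AD against 213 and 190 CPM in AD_ABR (−0.94 ± 0.19 SE, adjusted p = 0.0407), and the call was lost without AD_ABR replicate 2. Without AD replicate 2, the log2 fold changes of the members ran from −1.11 to 0.20. Nfkbiz had 723 and 571 CPM against 391 and 401 CPM (−0.80, adjusted p = 0.0667). Relb did not separate (106 and 113 against 144 and 98.0 CPM; 0.04, adjusted p = 0.965), and neither did Rela (65.4 and 81.7 against 85.6 and 77.3 CPM; 0.05, adjusted p = 0.948). Tnfaip3 (407 and 316 against 280 and 233 CPM; −0.59, adjusted p = 0.188) changed by less than in smooth muscle-like cells, with a difference of 1.13 ± 0.21 SE (adjusted p = 0.024, where 0.433% of genes differed in that direction). That difference was lost without AD replicate 1 (adjusted p = 0.0582), AD_ABR replicate 1 (0.337) or AD_ABR replicate 2 (0.615). The neutrophil markers summed to 909 and 251 CPM in this class in AD and 327 and 305 CPM in AD_ABR. Judged from S100a8 and S100a9, free neutrophil RNA would have brought at most 4.21% of a member's level (Nfkbia, AD replicate 1), and with cells that carried a UMI of either gene left out, Nfkb1 and Nfkbiz fell. The Nfkb1 call was lost with library totals (adjusted p = 0.0596) and without doublet removal (0.282), where 1 of 10456 genes was called.

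In Schwann-like cells 8 members passed the filter, 0 fell, where 0.161% of genes fell, and 1 had an unadjusted p below 0.05, with log2 fold changes from −0.92 to 0.03. In cluster 8 (Tnnt2 and Corin, nearest to the smooth muscle list) 0 of 9 members fell, where 0.336% of genes fell. In cluster 15 (Col10a1 and Col8a1) 0 of 10 members fell, where 0.0194% of genes fell. Of the members, 4 in cluster 8 and 2 in cluster 15 had an unadjusted edgeR p below 0.05. The share of all genes at that unadjusted threshold was not counted in these 3 populations. Changes of the members ran from −1.73 to −0.18 in cluster 8 and from −1.49 to −0.02 in cluster 15. In cluster 15, 4 of the 10 members were lower in both AD_ABR libraries, as were 19.9% of its genes. DESeq2 also called 0 in each of these 3 populations. With each library left out in turn, the log2 fold changes of the members ran from −1.59 to 1.10 in Schwann-like cells. They ran from −2.19 to 0.27 in cluster 8 and from −2.12 to 1.52 in cluster 15. Neutrophil-like cells had only 21 and 10 cells in AD_ABR and were tested only with the limit lowered to 10 cells, where no member passed; Nfkbia, at 1942 and 1441 CPM in AD_ABR, had a log2 fold change of −1.95 (edgeR adjusted p = 0.442). Over the 12 populations tested, 30 of 116 tests of a member in a population were falls and 0 were rises. Genes that rose made up 1.56% of those tested in endothelial-like, 5.33% in smooth muscle-like, 0.13% in fibroblast-like, 0.0185% in macrophage-like, 0.419% in dendritic-like and 0% in Schwann-like cells, and 0.408% in cluster 2, 0.267% in cluster 5, 0.242% in cluster 8, 0.713% in cluster 14 and 0.0097% in cluster 15.

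Summed over all kept cells, 8 of 10 members fell, where 2.4% of the 20196 genes fell. Both AD_ABR libraries were lower for all 10, as for 40.5% of genes, and 0.975% of genes rose. In such sums a change in the makeup of cells and a change in RNA per cell cannot be told apart. Tnfaip3 had 238 and 157 CPM in AD against 36.4 and 48.4 CPM in AD_ABR (−2.11 ± 0.25 SE, adjusted p = 0.0325), Nfkbie 43.7 and 33.3 CPM against 8.83 and 10.5 CPM (−1.88, adjusted p = 0.0224) and Nfkb1 202 and 185 CPM against 71.4 and 72.8 CPM (−1.32, adjusted p = 0.0224). Nfkbiz (544 and 473 against 259 and 275 CPM) came to the threshold at an adjusted p of 0.05 and was not called, and Rela (75.1 and 75.8 against 58.0 and 57.7 CPM; −0.28, adjusted p = 0.157) was not called either. With each library left out in turn, the log2 fold changes of the members ran from −2.32 to −0.21. With every cell that carried an S100a8 or S100a9 UMI left out, 2 members were called (Nfkb1 and Nfkbie). Fewer genes of all kinds were called in that fit, 161 of 20184 in either direction against 682 of 20196 in the main fit. The log2 fold changes of all 10 members stayed negative in it. The source of the transcripts moved between the groups: dendritic-like cells held 29.5 and 31.8% of the Rel UMIs in AD and 18.7 and 19.98% in AD_ABR, and smooth muscle-like cells held 5.31 and 8.05% of those of Nfkbiz in AD and 28.1 and 15.2% in AD_ABR.

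Other genes of the pathway, from lists that hold no member, were compared in the same fits. Of all genes tested, 4.09% fell and 1.56% rose in endothelial-like cells, and 6.83% fell and 5.33% rose in smooth muscle-like cells. Counts of a few genes from a short list are to be read beside these shares. Of the kinases and adaptors upstream, 5 of 28 fell in endothelial-like cells (median log2 fold change −0.30, against 0.00 over all genes) and 3 of 27 in smooth muscle-like cells (median −0.16, against −0.02). Map3k8, a kinase that is bound by p105, had 45.7 and 45.7 CPM in AD against 12.8 and 11.5 CPM in AD_ABR in endothelial-like cells (−1.94, adjusted p = 0.000148), and 33.5 and 35.0 against 22.8 and 21.3 CPM in smooth muscle-like cells (−0.58, adjusted p = 0.00477). Malt1, the protease of the CARD-BCL10-MALT1 complex, led in smooth muscle-like cells (65.4 and 71.6 against 27.8 and 18.3 CPM; −1.51, adjusted p = 0.000186). In endothelial-like cells its partner Bcl10 (99.1 and 105 against 59.4 and 58.6 CPM; −0.83, adjusted p = 0.00601) and Map3k14, the kinase NIK of the non-canonical arm (10.7 and 13 against 3.01 and 3.28 CPM; −1.97, adjusted p = 0.00836), also fell. Of the receptors, 0 of 11 fell in endothelial-like and 3 of 11 in smooth muscle-like cells (Tlr2, Tlr3 and Tnfrsf1b, all under 7 CPM in every library). Among other inhibitors, 2 of 18 fell and 1 rose in endothelial-like cells and 3 of 19 fell in smooth muscle-like cells. Zc3h12a, an endonuclease that degrades inflammatory mRNA, fell in both (−1.34 and −0.67; adjusted p = 0.00247 and 0.0164), and so did Tnip1, a partner of A20 (−0.78 and −0.57; adjusted p = 0.0444 and 0.0325). Pdlim2, a ligase that promotes the loss of nuclear p65, was the gene that rose in endothelial-like cells (34.4 and 43.5 against 66.9 and 62.7 CPM; 0.67, adjusted p = 0.0444).

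Of the NF-kB target genes, 10 of 23 fell in endothelial-like cells (median −1.16, where 4.09% of all genes fell). In smooth muscle-like cells 17 of 24 fell and 1 rose (median −1.03, where 6.83% of all genes fell and 5.33% rose). Sele (E-selectin, which catches leukocytes on endothelium) had 352 and 344 CPM in AD against 67.7 and 40.2 CPM in AD_ABR in endothelial-like cells (−2.72 ± 0.20 SE, adjusted p = 2.19e-05). In the same cells the neutrophil chemokine Cxcl2 had 790 and 721 against 278 and 237 CPM (−1.59, adjusted p = 4.82e-05), and the adhesion molecule Icam1 had 1177 and 1292 against 587 and 550 CPM (−1.16, adjusted p = 0.000237). In smooth muscle-like cells the interferon-linked chemokine Cxcl10 (31.2 and 22.1 against 6.93 and 4.95 CPM; −2.06, adjusted p = 1.3e-05), the transcription factor Irf1 (88.9 and 94.5 against 48.3 and 46.0 CPM; −0.90, adjusted p = 8.12e-05) and Cxcl1 (52.3 and 58.4 against 30.7 and 26.6 CPM; −0.90, adjusted p = 0.000145) had the lowest adjusted p-values. In fibroblast-like cells 5 of 25 targets fell, where 0.274% of all genes fell. In macrophage-like cells 1 of 24 fell (Traf1, 121 and 84.8 against 17.8 and 18.3 CPM, −2.61, adjusted p = 0.0488), where 0.0649% of all genes fell. In dendritic-like cells 2 of 23 fell and 1 rose, where 0.656% of all genes fell and 0.419% rose. Of the dissociation genes, 7 of 22 fell and 2 rose in smooth muscle-like cells (median −0.02, against 6.83% and 5.33% of all genes) and 0 of 22 fell in fibroblast-like cells (median −0.07).

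The 5 other genes whose level followed the members most closely were Kdm6b (r = 0.954), Zc3hav1 (0.938), Zc3h12a (0.933), Tgif1 (0.922) and Zfp622 (0.915). The measure was Pearson's r with the mean pattern of the 10 members over 48 sums (12 populations in 4 libraries), on log2(CPM + 5), among 8822 genes; sums of a library share its depth, so r is a description. Kdm6b encodes a demethylase of histone H3 lysine 27. Against the mean of the other members, each member itself reached 0.802 to 0.937 except Rela at 0.442, the gene whose level also varied least between populations and which was called in endothelial-like cells only.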

How the data were processed

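The deposited matrices hold UMI counts per gene and barcode, not normalized. Per the submitters' processing notes, STAR, Cell Ranger 6.0, Seurat 4.0 and GRCm38 were used, while the file headers of the matrices name Cell Ranger 7.1.0. Barcodes with at least 200 genes and under 20% mitochondrial UMIs were kept, and the highest Scrublet doublet scores were removed at 0.8% per 1000 barcodes, because the caller's own threshold marked 1 barcode in AD replicate 1. Cells were clustered without integration with scanpy 1.11.5 (2000 variable genes, 30 principal components, 15 neighbours, Leiden resolution 1.0), which gave 31 clusters. A cluster was named when at least 3 markers of 1 of 23 lists were each seen in 10% of its cells with a mean log2 excess of at least 1, and its 10 leading genes did not hold more markers of another type.

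Counts were summed per library and population and tested with edgeR 4.0.16 in R 4.3.3 (TMM factors, filterByExpr, robust quasi-likelihood F test, no replicate block), with Benjamini-Hochberg adjustment over all genes of the population. The SE of a log2 fold change is its size divided by the square root of F, SDs are over 2 libraries, and CPM uses the summed counts without TMM factors. With 2 libraries against 2, an exact permutation test of a single value cannot go below p = 0.333, so none was used. The script was tested on simulated data. Free RNA was estimated by scaling a donor population's levels to the share of its marker level that the class carried in the same library, which gives an upper limit where the class makes those markers itself. Alternatives were DESeq2 1.42.0, other scaling, filters, doublet removal and clustering, and leaving out each library. The members and lists were chosen with earlier results of these data known. The text names all members, and from each other list at most 3 genes that passed with the lowest adjusted p in smooth muscle-, endothelial- and macrophage-like cells and did not overlap between groups.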

Additional observations from a re-analysis of the deposited data

Results flagged for a closer look

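The change with paquinimod differed between populations for 9 pairs of a gene and a population by the class by group term of edgeR, each against smooth muscle-like cells. In endothelial-like cells the change was lower by −1.04 for Nfkbiz, by −0.92 for Nfkbia and by −0.62 for Nfkb1 on the log2 scale. In dendritic-like cells that of Tnfaip3 was higher by 1.13. In cluster 2 that of Nfkb1 was lower by −1.04. In cluster 7 the change was higher by 1.47 for Rel, 1.23 for Relb, 1.10 for Bcl3 and 1.10 for Tnfaip3. Nfkbiz in endothelial-like cells, Nfkb1 in cluster 2 and Rel and Relb in cluster 7 passed with any single library left out, and the other 5 did not. The comparisons with clusters 2 and 7 were chosen after seeing the data. Clusters 2 and 7 took different shares of cells in the groups: 1.67 and 4.38% in AD against 13.9 and 16.0% in AD_ABR for cluster 2, and 8.79 and 6.48% against 1.57 and 2.61% for cluster 7.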

How the results depend on the processing

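No member rose past the threshold in any alternative. Outside Schwann-like cells and clusters 8 and 15, there were 1278 alternative values of a member in a population, of which 1087 kept direction and side of the threshold, 76 lost a call, 81 gained one and 34 changed sign. Library totals and tests of single clusters were added after seeing the data. For values named below, the cause of a change was not tested.

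With each library left out in turn, the number of calls over all genes varied widely, so members called are not counted here. Their log2 fold changes ran from −2.32 to −0.62 in endothelial-like, −2.12 to −0.14 in smooth muscle-like and −1.64 to −0.28 in fibroblast-like cells. They ran from −1.38 to 0.50 in macrophage-like, −1.11 to 0.28 in dendritic-like and −1.59 to 1.10 in Schwann-like cells, and from −2.32 to −0.21 in all cells. The ranges were −2.71 to 0.35 in cluster 2, −1.81 to 0.15 in cluster 5 and −0.83 to 0.76 in cluster 7. For clusters 8, 14 and 15 they were −2.19 to 0.27, −2.61 to −0.12 and −2.12 to 1.52. The number of members whose change differed from that in smooth muscle-like cells also varied between these fits in most populations. The number over all genes was not counted in them. Leaving out each library, the log2 fold change of Relb ran from −0.40 to 0.35 in cluster 2, −0.55 to 0.15 in cluster 5, −0.19 to 0.28 in dendritic-like and −0.38 to 0.095 in macrophage-like cells. In cluster 7, Nfkb2 ran from −0.060 to 0.17 and Nfkbiz from −0.14 to 0.065. Rela ran from −0.10 to 0.20 in dendritic-like and −0.29 to 0.15 in macrophage-like cells, where Nfkbiz ran from −0.42 to 0.34 and Bcl3 from −0.36 to 0.50.

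Genes called in either direction in the same fit are given in brackets. With DESeq2, 2 members fell in dendritic-like cells (93 of 9302 genes), 5 in fibroblast-like cells (246 of 14604) and 1 in cluster 14 (73 of 10384). Without the filter on low counts, 4 fell in dendritic-like (513 of 19919), 7 in fibroblast-like (870 of 26366) and 2 in macrophage-like cells (1114 of 22091). In the same setting 3 fell in cluster 8 (338 of 20641), 3 in cluster 15 (229 of 21848), 5 in cluster 5 (415 of 22883) and 2 in cluster 7 (1043 of 20938). Nfkb2 in cluster 7 was then at −0.00728 and Relb in dendritic-like cells at −0.0101. At Leiden resolution 0.5, 2 fell in dendritic-like (189 of 9655), 5 in fibroblast-like (394 of 14234) and 3 in macrophage-like cells (978 of 12097). Relb in dendritic-like cells was then at −0.0544 and, in macrophage-like cells, Rela at 0.0029, Relb at 0.24, Nfkbiz at 0.012 and Bcl3 at −0.40. Clustered without the genes of the lists, 2 fell in dendritic-like cells (157 of 9414), with Relb at −0.0219, and in macrophage-like cells Rela was at 0.0100 and Relb at 0.0823. With cells that carried an S100a8 or S100a9 UMI left out, 2 fell in dendritic-like cells (147 of 8683) and 2 in all cells (161 of 20184). With library totals, which moved the median of all genes by −0.10 in all cells and by less elsewhere, 0 fell in dendritic-like cells (86 of 9302). Without doublet removal 0 fell in dendritic-like cells (1 of 10456), with Rela at −0.0511, and in macrophage-like cells Rela was at 0.0449, Relb at 0.0042 and Nfkbiz at 0.0113. Below 10% mitochondrial UMIs, Rela in macrophage-like cells was at 0.0413 and Relb at 0.0558. Cluster 3 by itself had 1 falling member (22 of 13509), cluster 4 by itself had Bcl3 at 0.0181, and cluster 9 by itself had 2 falling members (356 of 9144) and Bcl3 at −0.42.

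Libraries of AD and AD_ABR share only replicate numbers, and the correlation of the difference between replicates across groups was −0.0857 to 0.139. With the replicate number as a block, 1 member fell in all cells (125 of 20196 genes called in either direction) and 5 in cluster 5 (471 of 11991). In that fit 5 fell in dendritic-like (470 of 9302), 6 in fibroblast-like (444 of 14604) and 10 in smooth muscle-like cells (3203 of 14540). With at least 10 cells a library, 0 members fell in the populations added. Unnamed clusters were not tested again after clustering anew. Counts of under 20 UMIs in a library limit, among the calls, Nfkbie in endothelial-like and smooth muscle-like cells, Bcl3 in endothelial-like cells and Tnfaip3 in cluster 14.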
